A study of Mus musculus with 2 samples.

Results

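The genes described here are 37 genes of DNA replication and cell division, 14 that act in S phase and 23 that act in mitosis. They were chosen by symbol from a fixed list, and all 37 were found among the 33696 genes of the deposited tables. Expression was measured in single cells of ulcerated mouse skin in 2 libraries made with the 10x Genomics 5′ method, which counts captured RNA molecules as unique molecular identifiers (UMIs). One library came from wild-type skin and the other from skin labelled as overexpressing Has2, the synthase of the matrix sugar hyaluronan, throughout the body. The label of each gives 15 days of tape stripping at 40 to 50 strips a day, a procedure that stands for scratching. The strain, the age and the promoter of the transgene were not given in the sources used here, and the treatment label may lack an earlier step, since it starts mid-sentence.

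Each genotype had 1 library, so effects of genotype, of the animal and of library preparation cannot be told apart. The molecule is labelled total RNA for the wild-type library and polyA RNA for the other, and this too cannot be told apart from genotype. No difference between the libraries could be tested, and the 95% intervals cover counting error only. The wild-type library held 16999 barcodes with 143875454 UMIs, and the other held 14622 barcodes with 134917708 UMIs. Has2 itself was 71.5 counts per 1e6 UMIs (CPM) in wild-type skin and 85.8 CPM in the library labelled Has2-transgenic, a ratio of 1.2 (1.17 to 1.23). Because that difference was small, the second library is named by its label throughout. The libraries shared 79 barcodes.

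Cells were assigned to 9 cell classes by marker genes, and a class name means cells that carried the markers of that type. The classes held 15117 of 16837 kept wild-type cells and 13410 of 14415 kept cells of the other library. The fibroblast gate held 2359 and 2537 cells and the macrophage and monocyte gate 5231 and 4634. In fibroblast-gated cells the summed level of 12 macrophage and monocyte markers was 162 CPM in wild-type skin and 346 CPM in the other. In macrophage-gated cells 8 fibroblast markers summed to 49.3 and 66.5 CPM, and the median cell of either library had none of them. The part of these RNAs in the member values was not tested.

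A cell that divides first copies its DNA in S phase and then separates the copies in mitosis. Replication begins when Cdc6 and Cdt1 load the Mcm2 to Mcm7 helicase onto DNA, Gins2 helps to activate that helicase, and Pcna clamps the polymerases to their template. Rrm1, Rrm2 and Tyms supply nucleotides, and Hells remodels chromatin. In mitosis the kinase Cdk1 acts with the cyclins Ccna2, Ccnb1 and Ccnb2, the kinesins and other spindle proteins move chromosomes, and Ube2c and Cdc20 drive the destruction of cyclins through the anaphase-promoting complex. Transcription of S phase genes is known to depend on E2F factors, and that of mitotic genes on a CHR element and on CCAAT boxes bound by NF-Y.

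Because the sets are known for different promoter elements, the 200 bases before the annotated start are printed for 3 mitotic and 3 S phase members. They were read from RefSeq on build GRCm38.p6, which is not the build of the count tables. The sequences run 5′ to 3′ on the strand of the gene, and capitals mark every match on either strand to CCAAT, to the CHR (TTTGAA, with TTCGAA as its other form) or to an E2F heptamer. The heptamers searched were TTCCCGC, then its variants TTGGCGC and, besides, TTCGCGC and, last, TTGCCGC, and their matches can overlap each other. Cdk1, Top2a, Mcm5 and Mcm6 are shown because they stand for the sets. Cenpa and Pcna are shown because they were also found in cells with few mitotic members.
Cdk1 (chr10:69352913-69353112, minus strand): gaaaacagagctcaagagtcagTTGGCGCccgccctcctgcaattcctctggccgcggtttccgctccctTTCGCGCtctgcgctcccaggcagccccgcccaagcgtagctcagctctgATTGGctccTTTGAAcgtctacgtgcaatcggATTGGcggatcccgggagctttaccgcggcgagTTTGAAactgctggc
Top2a (chr11:99024190-99024389, minus strand): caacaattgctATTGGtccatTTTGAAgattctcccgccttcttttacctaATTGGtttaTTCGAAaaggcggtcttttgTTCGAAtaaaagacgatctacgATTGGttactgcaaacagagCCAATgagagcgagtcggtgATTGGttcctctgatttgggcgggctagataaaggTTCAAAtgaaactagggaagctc
Cenpa (chr5:30666686-30666885, plus strand): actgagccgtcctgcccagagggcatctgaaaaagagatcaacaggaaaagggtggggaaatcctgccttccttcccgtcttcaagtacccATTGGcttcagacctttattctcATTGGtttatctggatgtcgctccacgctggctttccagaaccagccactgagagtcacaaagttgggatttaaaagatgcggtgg
Mcm5 (chr8:75109309-75109508, plus strand): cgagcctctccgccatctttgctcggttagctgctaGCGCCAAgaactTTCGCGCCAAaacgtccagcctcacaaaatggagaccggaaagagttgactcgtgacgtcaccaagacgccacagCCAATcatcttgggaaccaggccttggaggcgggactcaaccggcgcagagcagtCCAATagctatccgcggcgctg
Mcm6 (chr1:128359706-128359905, minus strand): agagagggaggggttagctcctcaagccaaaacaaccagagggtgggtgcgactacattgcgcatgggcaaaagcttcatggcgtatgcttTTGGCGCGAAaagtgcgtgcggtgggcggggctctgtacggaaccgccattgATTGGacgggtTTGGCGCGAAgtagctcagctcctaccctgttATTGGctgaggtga
Pcna (chr2:132253181-132253380, minus strand): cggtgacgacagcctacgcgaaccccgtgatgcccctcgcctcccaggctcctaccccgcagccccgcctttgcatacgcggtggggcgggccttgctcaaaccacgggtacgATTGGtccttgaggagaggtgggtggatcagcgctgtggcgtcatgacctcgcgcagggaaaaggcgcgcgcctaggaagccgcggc

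Cdk1 had CHR matches 71 and 15 bases before its start, CCAAT matches 80 and 48 bases before it and E2F matches 178 and 130 bases before it, and Top2a had 4 CHR and 5 CCAAT matches. Mcm5 had 3 E2F matches and Mcm6 had 4, each with 2 CCAAT matches and no CHR match. Cenpa and Pcna had neither a CHR nor an E2F match in these bases, but the longer Cenpa window used for the counts that follow holds a TTTGAA. RefSeq windows of 300 bases, 250 before and 50 after the start, were at hand for 31 of the 37 members. Kif20a, Mcm4, Ccna2, Gins2, Tpx2 and Aurkb were not among them. A gene with several annotated starts has a window for each, so the 19 mitotic members matched had 20 windows and the 12 S phase members 13. A CHR match was present in 16 of 20 mitotic windows and in 2 of 13 S phase windows, against 19.2% of 32851 windows of all genes. An E2F match was present in 3 of 20 mitotic and 10 of 13 S phase windows, against 9.57% of all windows. CCAAT was in 18 of 20 mitotic and 9 of 13 S phase windows, against 37.4% of all. A CCAAT and a CHR match together were in 16 mitotic windows and in 7.52% of all. A match describes these letters only and is not shown to be a bound site.

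The summed level of the members differed widely between the cell classes. The 23 mitotic members summed to 1231 CPM (1116 to 1354) in the 19 keratinocyte-gated cells of the wild-type library and to 1063 CPM (1033 to 1093) in the 195 of the other. Of the wild-type keratinocyte sum, 72.7% came from 1 cell. Endothelial cells, which line vessels, came next in wild-type skin with 563 CPM (543 to 583), and they had 498 CPM (478 to 519) in the second library. T and NK cells had 499 CPM (460 to 541) and 574 CPM (511 to 642). Their wild-type interval lay just below the endothelial one, and that of the second library overlapped it. Fibroblasts had 362 CPM (357 to 367) and 299 CPM (294 to 303), and macrophages and monocytes 103 CPM (101 to 106) and 200 CPM (196 to 205). Neutrophils, which leave the marrow after their last division, were lowest among the classes in the library labelled Has2-transgenic, at 47.5 CPM (44.7 to 50.4) in wild type and 40.1 CPM (36.7 to 43.9) in the other. Small classes had wide differences that rested on few cells. Dendritic cells had 224 and 429 CPM. Schwann cells had 27.9 CPM in wild-type skin, from 12 UMIs, and 1128 CPM in the second library. The gate for pericytes and smooth muscle had 106 and 538 CPM, and in the second library its value (505 to 573) was above that of the endothelial cells with an interval that overlapped theirs. Cells of that gate carried more RNA of 8 fibroblast markers (2476 and 10233 CPM) than of their own 8 markers (2340 and 7235 CPM). Macrophage and monocyte markers summed to 54.3 and 691 CPM there and neutrophil markers to 65.6 and 630 CPM, so the name is that of the gate only, and the part of these RNAs was not tested. The neutrophil values serve as the level found in cells that should lack these genes.

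**Figure D1:**
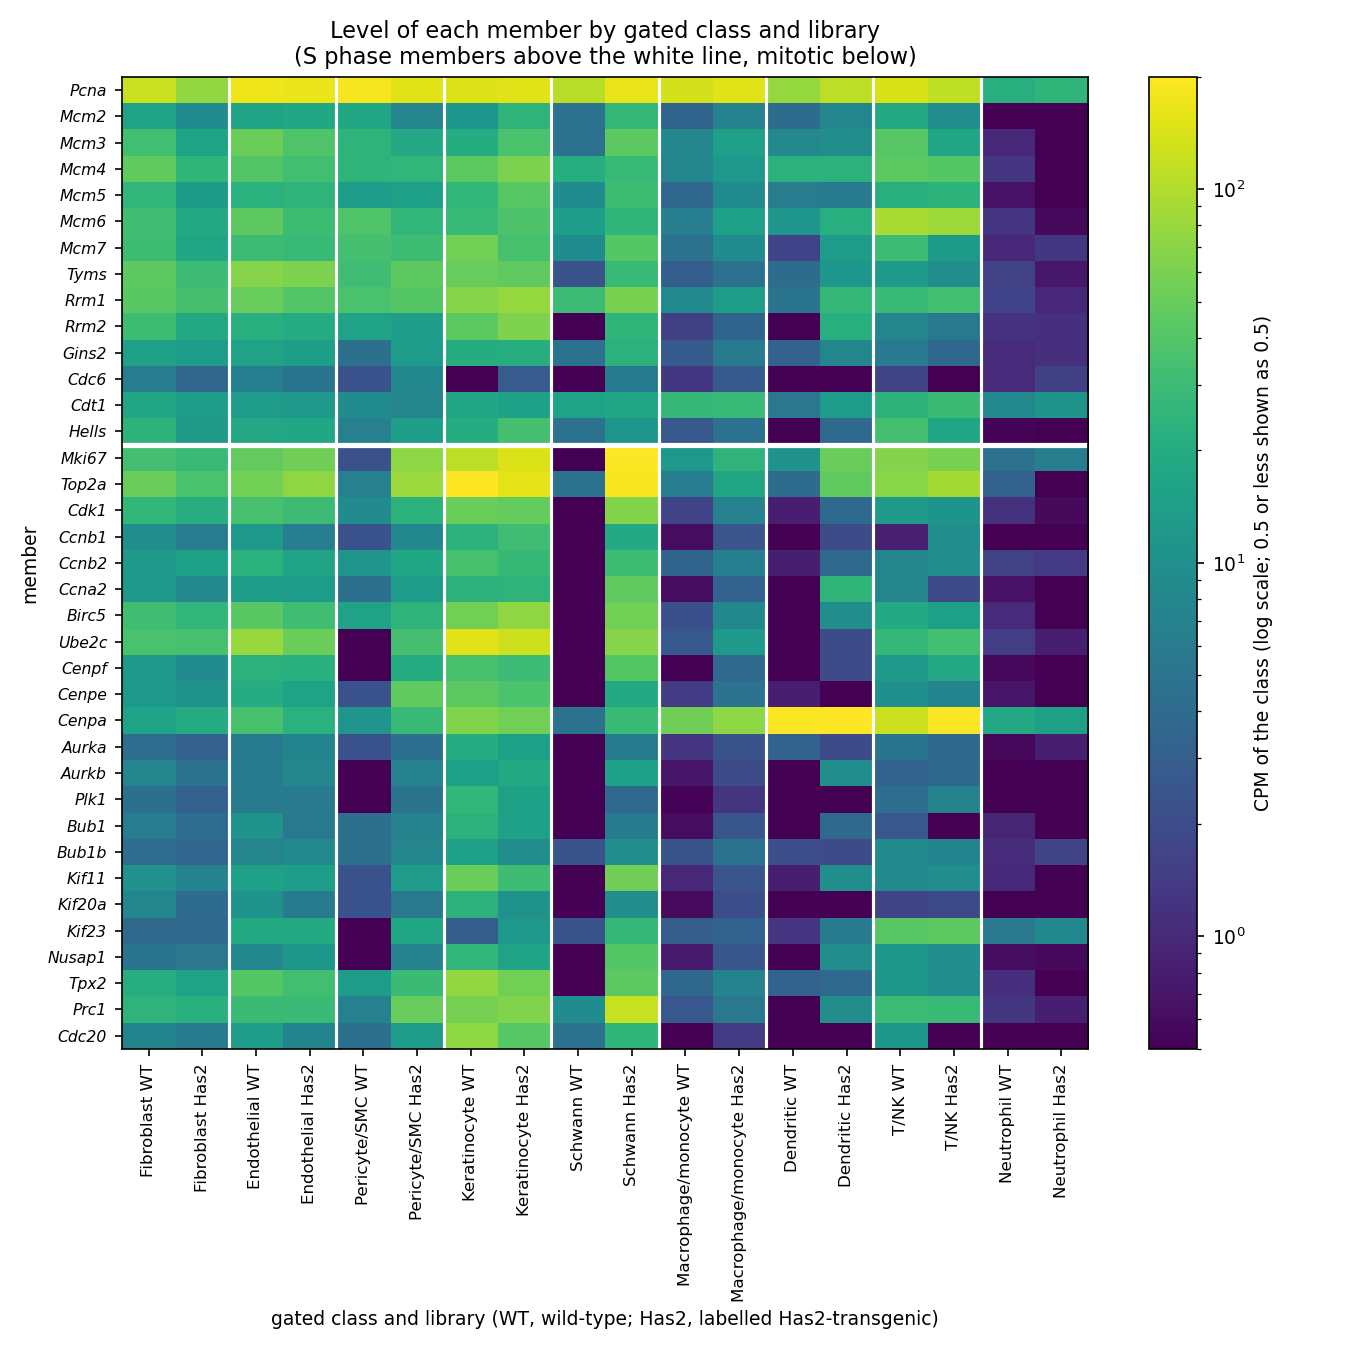
Level of each of the 37 members (rows, S phase above the white line and mitotic below) in each cell class and library (columns), as CPM on a log colour scale on which 0.5 or less has the darkest colour. Cenpa is bright in the dendritic, T and NK and macrophage columns where most other mitotic members are dark, and Pcna is bright in every class but neutrophils.

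The S phase sum followed another order. It was 572 CPM in endothelial cells of the wild-type library, 551 CPM in keratinocytes, 506 CPM in T and NK cells and 486 CPM in fibroblasts, and it was 214 CPM in macrophages and 42.1 CPM in neutrophils. In the other library keratinocytes had 650 CPM, endothelial cells 510 CPM, T and NK cells 400 CPM, fibroblasts 304 CPM, macrophages 285 CPM and neutrophils 45.7 CPM. Pericytes and smooth muscle cells had 444 and 421 CPM, Schwann cells 225 and 540 CPM and dendritic cells 152 and 277 CPM. Endothelial cells and keratinocytes, keratinocytes and T and NK cells, and T and NK cells and fibroblasts did not differ beyond their counting intervals in wild-type skin.

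The number of S phase UMIs per mitotic UMI set the classes apart. Keratinocytes had the lowest ratio among classes with over 100 mitotic UMIs in wild-type skin, at 0.45 (0.38 to 0.53), and 0.61 (0.58 to 0.64) in the other library. In wild-type skin 1 cell held 72.7% of the keratinocyte mitotic UMIs, so that rank rests mostly on 1 cell, which the interval does not cover. In endothelial cells the sets were level in both libraries, with ratios of 1.02 (0.97 to 1.07) and 1.02 (0.97 to 1.09). Fibroblasts had 1.34 (1.32 to 1.37) in wild-type skin and 1.02 (1.0 to 1.04) in the other. Macrophages and monocytes had 2.07 (2.0 to 2.14) and 1.42 (1.38 to 1.46). The ratio was lower in the library labelled Has2-transgenic for fibroblasts and for macrophages, although their S phase sums differed in opposite directions. In neutrophils, the class with the most cells, it was higher, at 0.89 (0.81 to 0.97) and 1.14 (1.01 to 1.29). Without Cenpa, Pcna and Cdt1, a choice made after their distribution was seen, fibroblasts had 1.01 and 0.77 and macrophages 1.10 and 0.80, so that the macrophage ratio of the library labelled Has2-transgenic lay below 1. Neutrophils then had 0.43 (0.38 to 0.50) and 0.37 (0.29 to 0.46), so their order was turned round and the intervals overlapped.

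**Figure D2:**
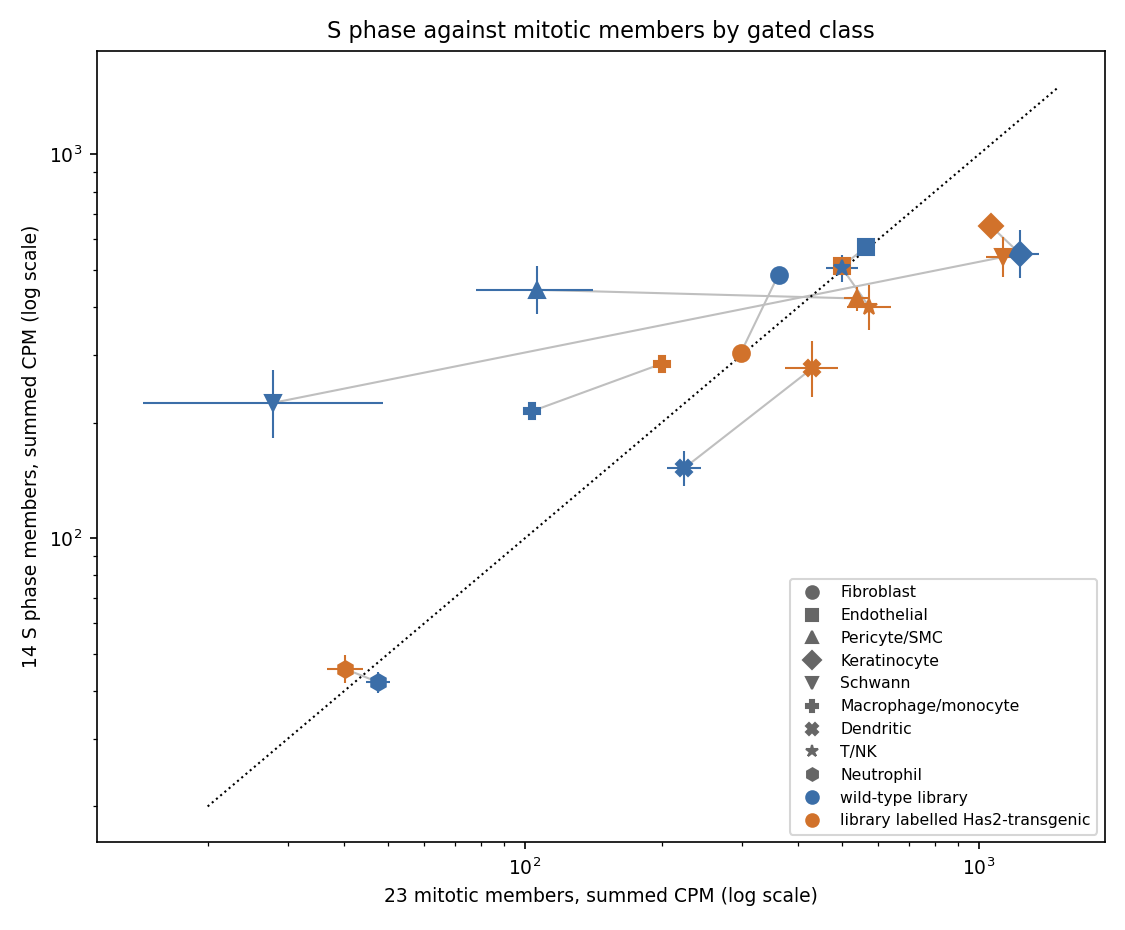
Summed CPM of the 14 S phase members (vertical axis, log scale) against that of the 23 mitotic members (horizontal axis, log scale) in each cell class, with 95% counting intervals, a grey line joining the libraries and a dotted line of equal sums. Macrophages move to higher values of both sets from the wild-type library (blue) to the library labelled Has2-transgenic (orange), and fibroblasts to lower values of both (the fibroblast mitotic sum was 1.01 times as high instead when averaged over cells).

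In macrophage-gated and monocyte-gated cells all 23 mitotic and all 14 S phase members had higher levels in the library labelled Has2-transgenic. Of the 14725 genes measured in this class, 57.3% did. The mitotic sum was 1.94 times as high (1.87 to 2.01) and the S phase sum 1.33 times (1.30 to 1.37). The median log2 ratio was 1.47 for the mitotic and 0.93 for the S phase members, against 0.07 over all genes. A ratio past 2-fold was found for 16 mitotic and 6 S phase members, against 6.88% of all genes. All alternatives tried kept both sums higher, from 1.52 to 2.61 times for the mitotic and from 1.15 to 1.91 times for the S phase set. The lowest mitotic value came from thinning each cell to 2000 UMIs and the lowest S phase value from averaging over cells. The macrophages of the libraries also differed in makeup. In the unsupervised clustering, cluster 3 held 2030 wild-type cells and 749 others, cluster 14 held 489 and 1058, and cluster 9 held 63 and 305. All 8 genes of an osteoclast-like list had higher levels in the second library, up to a ratio of 32.2 for Ctsk, a collagen-cleaving cathepsin, and 7 of 8 monocyte genes had lower levels. The higher osteoclast-like genes were not particular to macrophages, since all 8 were also higher in fibroblasts (median log2 ratio 2.5, against 1.73 in macrophages). All 6 measured in endothelial cells were higher too, but only 3 of 8 in neutrophils and 1 of 2 in T and NK cells. The part of these macrophage differences in the member ratios was not tested.

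Among regulators of mitotic entry, Cdk1, the kinase that starts mitosis, was at 1.68 CPM (1.33 to 2.10; 77 UMIs in 43 of 5231 cells) in wild-type macrophages. It was at 7.19 CPM (6.36 to 8.10; 272 UMIs in 91 of 4634 cells) in the other library, 4.28 times as high (3.31 to 5.58). Ccna2, a cyclin partner of Cdk1, was also low in wild type, with 0.61 CPM (28 UMIs) and 3.30 CPM (125 UMIs), a ratio of 5.40 (3.56 to 8.46). Ccnb1, the main mitotic cyclin, had 28 and 91 UMIs and a ratio of 3.93 (2.55 to 6.24). The intervals of each of these genes did not overlap between the libraries.

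Chromosome and spindle genes showed the widest range. Cenpf, a kinetochore protein, was at 0.50 CPM (0.32 to 0.75) and 3.91 CPM (3.31 to 4.60), with 23 and 148 UMIs, and its ratio of 7.79 (5.0 to 12.7) was the highest of the members. Top2a, which untangles replicated DNA, was at 6.29 CPM (5.58 to 7.06) and 16.9 CPM (15.6 to 18.3), a ratio of 2.69 (2.34 to 3.10). Mki67, whose protein coats mitotic chromosomes and is the usual marker of dividing cells, was at 12.2 CPM (11.2 to 13.3) and 24.4 CPM (22.8 to 26.0), a ratio of 2.0 (1.80 to 2.22). Aurka, a kinase of the spindle poles, had 59 and 88 UMIs and a ratio of 1.81 (1.28 to 2.55), and Ccnb2, a mitotic cyclin, had 159 and 251 UMIs and a ratio of 1.91 (1.56 to 2.35). Kif23, a kinesin of the dividing cell's midzone, was almost level at 2.93 and 3.28 CPM, 1.12 times as high (0.87 to 1.44). Cenpa, the histone that marks centromeres, was at 54.6 CPM (52.5 to 56.8) and 72.8 CPM (70.1 to 75.6), a ratio of 1.33 (1.26 to 1.41).

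Genes of mitotic exit had higher levels as well. Ube2c, a ubiquitin-conjugating enzyme, was at 2.58 CPM (2.13 to 3.09) in wild-type skin and at 12.5 CPM (11.4 to 13.7) in the second library, a ratio of 4.87 (3.97 to 6.01). Cdc20, which activates the anaphase-promoting complex, had 12 and 55 UMIs and a ratio of 5.55 (2.94 to 11.4). Birc5, a subunit of the chromosomal passenger complex, had 99 and 313 UMIs and a ratio of 3.83 (3.04 to 4.85).

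The S phase members were separated by smaller ratios. Mcm5 was at 3.78 CPM (3.24 to 4.38) and 9.01 CPM (8.08 to 10.0), a ratio of 2.39 (1.98 to 2.88). Mcm6 followed at 6.44 and 14.6 CPM, a ratio of 2.26 (1.96 to 2.62), while Mcm2 and Mcm7 stood at 2.07 and 2.0 and Mcm4 at 1.59 (1.38 to 1.83). Gins2 had 125 and 218 UMIs and a ratio of 2.11 (1.69 to 2.65). Among the nucleotide enzymes Rrm2 had a ratio of 2.20 (1.63 to 2.98), Rrm1 1.68 (1.47 to 1.92) and Tyms 1.57 (1.25 to 1.97). Cdt1 and Pcna were nearly level, with ratios of 1.04 (0.96 to 1.13) and 1.16 (1.12 to 1.2). Pcna and Cdt1 held most of the S phase UMIs of this class, and the S phase ratio without them was 1.91 (1.81 to 2.01).

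**Figure D3:**
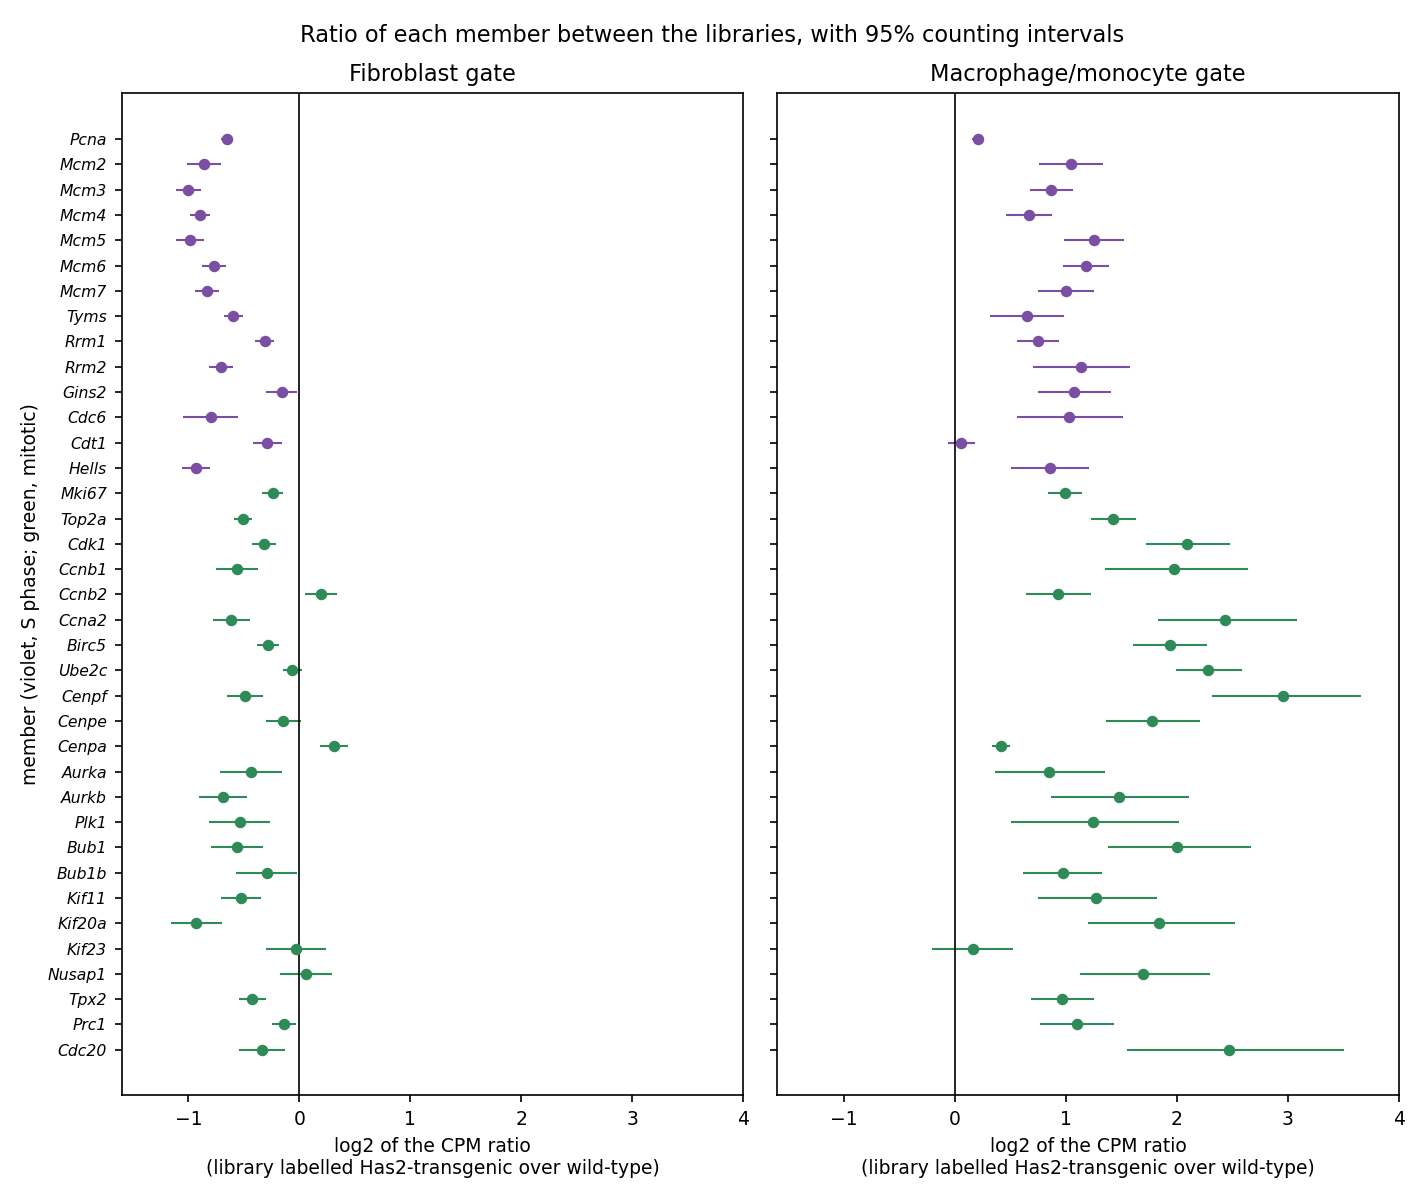
Log2 of the CPM ratio of each member between the libraries (points) with 95% counting intervals (lines), in fibroblasts and in macrophages and monocytes, with S phase members in violet and mitotic members in green. Macrophage ratios lie right of 0, least for Cdt1, Kif23 and Pcna, and fibroblast ratios lie left of 0 for every S phase member, with Cenpa, Ccnb2 and Nusap1 to the right (the fibroblast mitotic sum changed direction when averaged over cells).

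In fibroblast-gated cells all 14 S phase members were lower in the library labelled Has2-transgenic, whereas 50.1% of the 16817 genes measured in this class were lower. Past 2-fold lower was 1 of them, Mcm3, against 2.29% of all genes. The S phase sum was 486 CPM (480 to 492) in wild-type skin and 304 CPM (299 to 308) in the second library, a ratio of 0.624 (0.613 to 0.636). This sum stayed below 1 under every alternative tried, from 0.599 to 0.712. The median log2 ratio of the members was -0.78, against -0.00 over all genes. In an unsupervised clustering, clusters 0, 4 and 18 held mostly wild-type fibroblasts and clusters 19 and 24 mostly those of the second library. Cluster 0 was shallow, with a median of 970.5 UMIs against 23379 and 35545 in clusters 4 and 18. The 8 markers that define the gate summed to 21411 CPM in the first and to 56345 CPM in the second, and leaving the 50 most abundant genes out of the total gave S phase and mitotic ratios of 0.643 and 0.850. Genes of tissue dissociation and heat shock were also higher in the second library. In fibroblasts 10 of 14 were (median log2 ratio 0.43), against 49.9% of all genes, and in macrophages 13 of 14 (0.53), against 57.3%. The median was 1.03 in endothelial cells, 0.78 in neutrophils and 0.46 in T and NK cells, so this was not particular to fibroblasts and macrophages. The part of these genes in the member ratios was not tested.

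Helicase genes and Hells were among the lowest ratios. Mcm3 was at 32.5 CPM (31.0 to 34.1; 1729 UMIs in 530 of 2359 cells) in wild-type skin and at 16.3 CPM (15.3 to 17.3; 1056 UMIs in 392 of 2537 cells) in the second library, a ratio of 0.50 (0.46 to 0.54). Mcm5 stood at 25.8 and 13 CPM, a ratio of 0.51 (0.46 to 0.55), and Mcm4 at 46.8 and 25.2 CPM, a ratio of 0.54 (0.51 to 0.57). Mcm2, Mcm6 and Mcm7 lay between 0.55 and 0.59. Hells stood at 24.0 and 12.6 CPM, 0.52 times as high (0.48 to 0.57).

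Loading factors and nucleotide enzymes were spread more widely. Cdc6 had a ratio of 0.58 (0.48 to 0.68), within the range of the helicase genes, and Cdt1 one of 0.82 (0.75 to 0.90). Rrm2, the subunit of ribonucleotide reductase that is made in S phase, was at 30.9 CPM (29.4 to 32.4) and 19.0 CPM (17.9 to 20.1), a ratio of 0.61 (0.57 to 0.66). Its partner Rrm1, which is known to be more stable through the cycle, had 42.8 and 34.5 CPM and a ratio of 0.81 (0.76 to 0.85). Tyms stood at 45.6 and 30.2 CPM, 0.66 times as high (0.62 to 0.70). Gins2 had the ratio nearest to 1, at 15.5 and 13.8 CPM, with a ratio of 0.90 (0.81 to 0.99). Pcna was at 120 CPM (117 to 123) and 76.1 CPM (74.0 to 78.2), a ratio of 0.64 (0.61 to 0.66).

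The mitotic members of fibroblasts were less far apart, and the direction of their sum depended on how cells were weighted. The sum was 362 CPM and 299 CPM, a ratio of 0.825 (0.809 to 0.842), but the mean of per-cell CPM gave 1.01. Of the 23 members 20 were lower, against 50.1% of all genes, with a median log2 ratio of -0.33. Kif20a, a kinesin of late mitosis, was lowest, at 7.73 CPM (7.0 to 8.52) and 4.07 CPM (3.59 to 4.59), a ratio of 0.53 (0.45 to 0.62). Aurkb, the kinase of the chromosomal passenger complex, had a ratio of 0.62 (0.53 to 0.72), and Ccna2 one of 0.65 (0.58 to 0.73). Ccnb1 followed with 501 and 415 UMIs and a ratio of 0.68 (0.59 to 0.77). Top2a stood at 51.0 and 35.8 CPM, 0.70 times as high (0.66 to 0.74), whereas Mki67 stood at 33.3 and 28.3 CPM, 0.85 times as high (0.79 to 0.91). Cenpa was higher instead, at 16.2 CPM (15.1 to 17.3) and 20.1 CPM (19.1 to 21.3), a ratio of 1.24 (1.14 to 1.36). Ccnb2 had a ratio of 1.14 (1.04 to 1.26), and the intervals of Nusap1 at 1.04, Kif23 at 0.98, Ube2c at 0.96 and Cenpe at 0.90 held 1.

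Cells with at least 3 different mitotic members are called mitotic-positive here. They were 327 of 2359 fibroblasts in wild-type skin (13.9%, 12.5 to 15.3) and 355 of 2537 in the other (14%, 12.7 to 15.4). These cells held 97.3% and 94.5% of all mitotic UMIs of the class, and their mitotic level was nearly the same, 1254 and 1249 CPM. Their S phase level was 1238 CPM in wild-type skin and 884 CPM in the other. In the remaining fibroblasts the S phase level was 192 and 134 CPM, so the S phase difference was present on both sides of this division. The mitotic level of the remaining fibroblasts was higher in the second library instead, at 13.6 and 21.1 CPM. A mitotic-positive fibroblast had a median of 12 mitotic and 12 S phase members in wild-type skin, and of 11 and 9 in the other. At least 3 S phase members were seen in 313 of the 327 and in 311 of the 355.

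Deeper cells reveal more members, so shares were also counted after thinning each cell to 2000 UMIs and leaving out shallower cells, with 2 members as the limit. By this count 9.82% of 1863 wild-type fibroblasts (8.51 to 11.3) and 7.34% of 2344 others (6.31 to 8.47) were positive for mitotic members, after 496 and 193 cells had been left out. The ratio of these shares was 0.747 (0.603 to 0.925), but it was 1.05 at 1000 UMIs and 1.01 without thinning, so no order is read from it. For S phase members the thinned share was 15.1% (13.5 to 16.8) and 8.62% (7.51 to 9.83), a ratio of 0.569 (0.473 to 0.684), whereas at least 3 S phase members without thinning were seen in 38.0% and 40.0%. The median fibroblast that entered the thinned count had 25801 UMIs in wild-type skin and 26565 in the other. Cells with both sets after thinning were 6.71% and 3.41%, and cells with mitotic members alone were 3.11% and 3.92%, a ratio of 1.26 (0.898 to 1.78) whose interval held 1.

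Macrophages and monocytes had few mitotic-positive cells, 76 of 5231 (1.45%, 1.15 to 1.82) in wild-type skin and 143 of 4634 (3.09%, 2.61 to 3.62) in the other. The thinned shares were 1.08% (0.812 to 1.41) and 2.06% (1.66 to 2.53), after 337 and 315 shallower cells had been left out, and their ratio was 1.90 (1.34 to 2.73). That ratio lay between 1.28 and 2.73 under the alternatives, with the lowest at a limit of 1 member and the highest at 3 members. Most of the mitotic-positive macrophages lay near the limit: 44 of the 76 and 70 of the 143 had exactly 3 mitotic members, and 18 and 52 had 6 or more. Their median was 3 mitotic and 2 S phase members in wild-type skin and 4 of each in the other. They were deeper than the remaining macrophages, with medians of 15203.5 against 8302 UMIs in wild-type skin and 16507 against 7059 in the other. Neutrophils, the class that should lack division, had thinned shares of 0.162% (0.074 to 0.308) and 0.338% (0.162 to 0.621), with median depths of 3303.5 and 2485 UMIs. Cells positive for both sets made up 0.225% and 0.880% of thinned macrophages, a ratio of 3.91 (1.96 to 8.49), from 11 and 38 cells. Cells with mitotic members alone were 0.858% and 1.18%, a ratio of 1.38 (0.897 to 2.12). Those with S phase members alone were 4.13% and 4.58%, a ratio of 1.11 (0.908 to 1.36). Both of the latter intervals held 1, as did that of cells with any Mki67 UMI after thinning, at 1.31 (0.978 to 1.76). In mitotic-positive macrophages the mitotic level was 918 and 1510 CPM and the S phase level 724 and 1066 CPM.

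**Figure D4:**
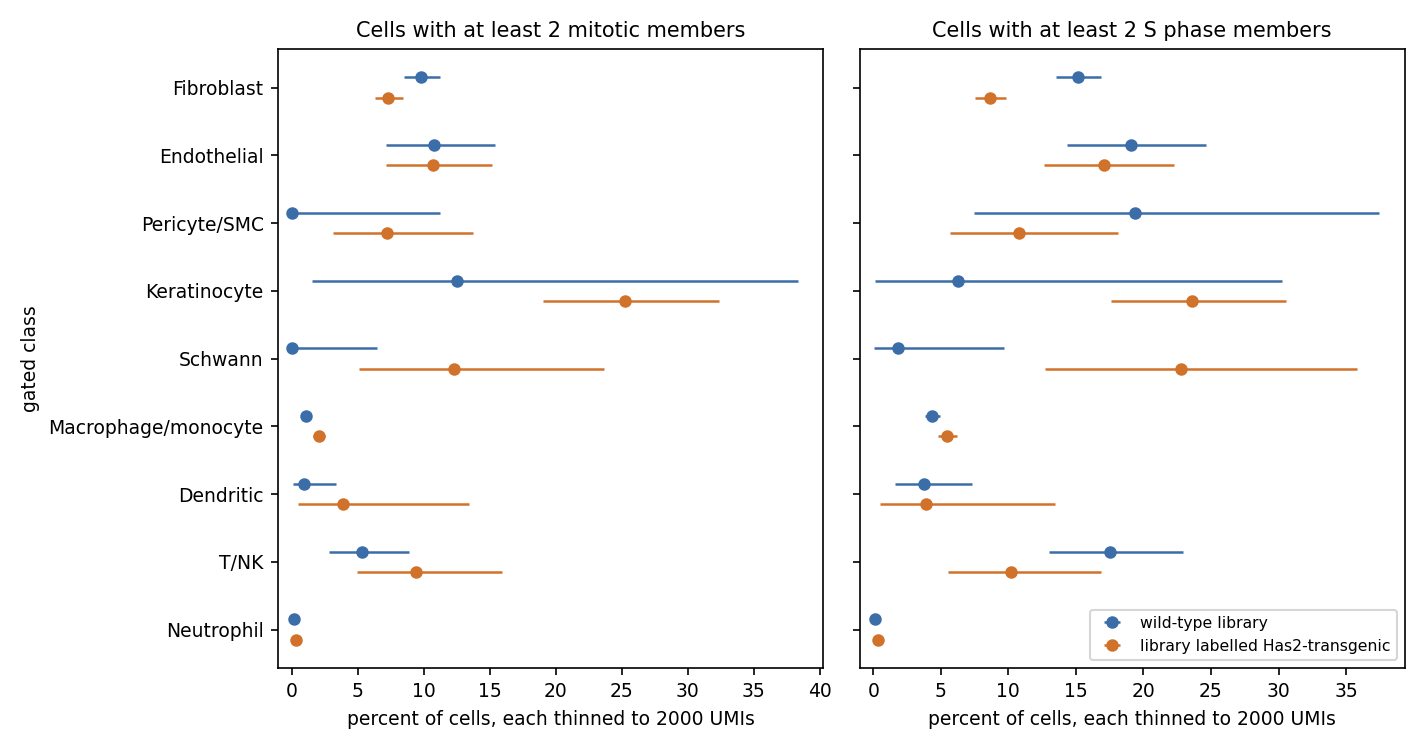
Share of cells with at least 2 mitotic members (left) and at least 2 S phase members (right) after thinning each cell to 2000 UMIs, by cell class and library, with exact 95% binomial intervals. Keratinocytes of the library labelled Has2-transgenic have the highest mitotic share, 25.3%, and macrophages lie between 1.08% and 2.06%, above neutrophils (the order of the fibroblast mitotic shares changed with the depth of thinning).

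Of the other classes, keratinocytes had the largest mitotic share in the library labelled Has2-transgenic, 25.3% of 178 thinned cells (19.1 to 32.3). The wild-type share, 12.5% of 16 cells (1.55 to 38.3), was too imprecise to compare with it. Endothelial cells had 10.8% (7.17 to 15.4) and 10.7% (7.18 to 15.2), a ratio of 0.993 (0.558 to 1.77). Of their members, 15 of 23 mitotic and 12 of 14 S phase genes were lower in the library labelled Has2-transgenic, against 48.6% of all 11836 genes. Schwann cells, the glia of skin nerves, had 0 of 55 thinned cells with mitotic members in wild-type skin, which allows a share of up to 5.45%, and 7 of 57 in the other (12.3%, 5.08 to 23.7). Those 7 cells held 94.8% of 581 mitotic UMIs, and 1 of them held 32.5%. Pericytes and smooth muscle cells had 0 of 31, which allows up to 9.68%, and 8 of 111 (7.21%, 3.16 to 13.7), and T and NK cells 5.31% (2.85 to 8.90) and 9.45% (4.98 to 15.9). Dendritic cells had 0.948% (0.115 to 3.38) and 3.92% (0.478 to 13.5), from 2 cells in each library. The intervals of the T and NK, dendritic and pericyte pairs overlapped. For Schwann cells the ratio of the mitotic shares had a lower limit of 1.39, and the S phase shares, 1.82% (0.046 to 9.72) and 22.8% (12.7 to 35.8), did not overlap. The thinned Schwann cells had median depths of 5019 and 7962 UMIs. Their own 8 markers summed to 8249 CPM in wild-type skin and 5257 CPM in the other. Fibroblast markers summed to 975 and 3558 CPM there and neutrophil markers to 232 and 1886 CPM. The part of these RNAs in the Schwann shares was not tested.

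Members with the most UMIs did not all differ alike within these classes. In endothelial cells Ube2c was lower in the second library, at 78.8 and 52.2 CPM (ratio 0.66, 0.56 to 0.78), and Top2a higher, at 56.5 and 74.2 CPM (1.31, 1.12 to 1.54). Mki67 stood there at 47.0 and 54.4 CPM, with an interval that held 1 (0.97 to 1.38). Their S phase members Pcna (0.98) and Tyms (0.92) had intervals that held 1, and Mcm3 was lower, at 52.5 and 38.1 CPM (0.73, 0.60 to 0.88). Keratinocytes had the highest Top2a of these classes in wild-type skin, 225 CPM from 77 UMIs, and 155 CPM in the second library, while Mki67 was at 111 and 144 CPM and Ube2c at 152 and 127 CPM. Their Pcna, Rrm1 and Rrm2 ratios of 1.05, 1.16 and 1.42 had intervals that held 1.

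In T and NK cells Cenpa was higher in the second library, at 122 and 192 CPM (ratio 1.57, 1.21 to 2.04), whereas Top2a (1.30), Mki67 (0.90), Pcna (0.81), Mcm6 (0.89) and Mcm4 (0.93) had intervals that held 1. Dendritic cells had Mki67 and Top2a at 10.8 and 4.16 CPM in wild-type skin and at 50.7 and 46.8 CPM in the second library, where 1 cell held 36.4% of all mitotic UMIs. Their Cenpa was at 193 and 226 CPM and their Pcna at 77.7 and 109 CPM, and Mcm4 (56 and 12 UMIs) and Mcm6 (28 and 11 UMIs) had ratios whose intervals held 1. In Schwann cells Mki67 had 0 and 102 UMIs, Top2a 2 and 97 and Prc1 4 and 63, and Pcna was at 104 and 169 CPM (1.62, 1.12 to 2.37). Rrm1 had 13 and 31 UMIs there and Mcm7 had 4 and 21. The pericyte and smooth muscle gate had 3 and 146 Top2a UMIs 1 and 130 Mki67 UMIs and 3 and 89 Prc1 UMIs, whereas Pcna at 183 and 152 CPM, Tyms and Rrm1 had ratios whose intervals held 1. Neutrophils had Cenpa at 18.6 and 15.0 CPM, Kif23 at 5.57 and 8.23 CPM and Mki67 at 4.77 and 6.42 CPM. Their Pcna was at 21.2 and 25.3 CPM, Cdt1 at 8.39 and 11.1 CPM and Rrm1 at 1.68 and 0.99 CPM.

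Mitotic genes were not found in mitotic-positive cells alone, and the share found elsewhere differed between classes. For this count a cell was taken as outside when it had fewer than 3 mitotic members other than the gene itself. In wild-type fibroblasts 9.29% of Cenpa UMIs, 2.95% of Top2a UMIs and 1.64% of Mki67 UMIs lay outside, and the highest share was 18.2%, of Nusap1. The same shares in fibroblasts of the second library were 10.2%, 3.87%, 5.07% and 31.3%. In wild-type macrophages the outside share was 96.6% for Cenpa, 72.6% for Mki67, 39.9% for Top2a and 21.2% for Ube2c. Fewer members are detected in shallower cells, so a shallow dividing cell can count as outside. Mitotic-positive cells had a median of 3 mitotic members in wild-type macrophages and 12 in wild-type fibroblasts. The part of depth in these shares was not tested. Cenpa alone made up 2501 of 4738 mitotic UMIs of wild-type macrophages. It was seen in 1356 of 5191 outside macrophages, against 56 of 2044 outside fibroblasts, although the median fibroblast was deeper, at 19222 UMIs against 8362. Neutrophils had it in 304 of 6662 outside cells.

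Among outside cells Cenpa was highest in dendritic cells, which present antigen, at 193 CPM (176 to 212) in wild-type skin and 222 CPM (182 to 269) in the other. T and NK cells followed at 109 CPM (89.9 to 130) and 175 CPM (140 to 215), and macrophages had 53.7 CPM (51.5 to 55.8) and 68.9 CPM (66.3 to 71.7). Endothelial cells had 4.08 and 5.29 CPM and fibroblasts 2.07 and 2.61 CPM. All 3 of those leukocyte classes therefore exceeded both stromal classes by more than the counting intervals, and neutrophils at 18.4 and 15.0 CPM lay between. T and NK cells also had Top2a at 42.2 and 43.9 CPM, Kif23 at 36.5 and 39.8 CPM and Prc1, a protein that bundles spindle microtubules, at 20.7 and 18.5 CPM outside. In outside macrophages these 3 genes were at 2.57 and 2.66 CPM, 2.35 and 2.05 CPM, and 1.77 and 1.84 CPM. Reads from overlapping genes cannot be told apart in these counts, and strand settings were not given in the sources used here.

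S phase members were also common outside, where a cell in S phase without mitotic members is counted too. After thinning, cells with S phase members alone were 8.43% of wild-type fibroblasts and 4.13% of wild-type macrophages. Pcna was seen in 3022 of 5155 outside macrophages of the wild-type library at 130 CPM (127 to 133), and in 983 of 2032 outside fibroblasts at 63.7 CPM (61.1 to 66.2). Cdt1 was at 26.8 CPM (25.3 to 28.4) in outside macrophages against 7.90 CPM (7.03 to 8.84) in outside fibroblasts. Rrm2 was the S phase member least often found outside in fibroblasts, with 3.17% of its UMIs outside in wild-type skin and 8.93% in the other. Mcm4 came next after Pcna in wild-type skin, with 36.1% outside, and had 38.0% in the second library.

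**Figure D5:**
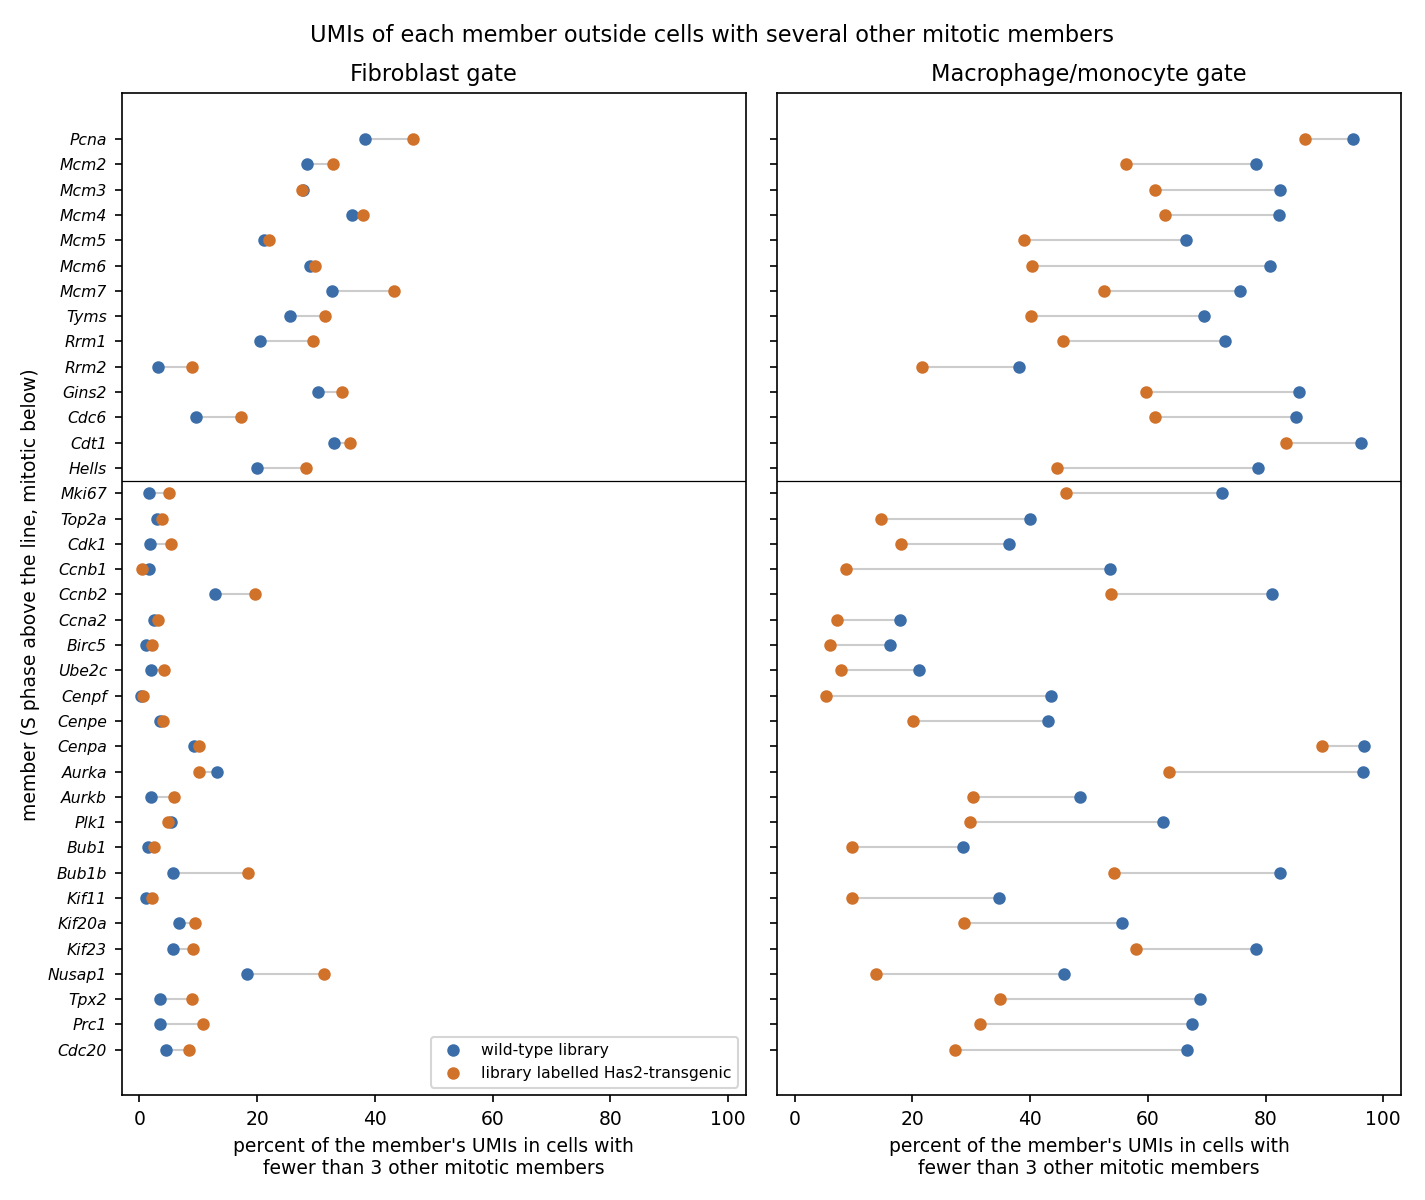
Percent of each member's UMIs found in cells with fewer than 3 other mitotic members, in fibroblasts (left) and in macrophages and monocytes (right), for the wild-type library (blue) and the library labelled Has2-transgenic (orange), with S phase members above the line. Fibroblast mitotic members range up to 18.2% and 31.3% (Nusap1), whereas Cenpa lies at 96.6% and 89.7% in macrophages.

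The mitotic-positive cells differed in state from the remaining cells of their class. In fibroblasts the 8 genes of a quiescent fibroblast list summed to 0.28 times the level of the remaining cells in wild-type skin and 0.41 times in the other. Within that list Pi16, a marker of adventitial fibroblasts, was at 176 CPM against 1050 CPM in wild-type skin and at 267 CPM against 1214 CPM in the other. The 10 inflammatory genes were at 0.58 and 0.61 times, and the 8 myofibroblast genes at 1.84 and 1.5 times. Tnc, which encodes a wound matrix protein, carried most of the latter, at 7576 against 4029 CPM and at 6152 against 3434 CPM. Mitotic-positive fibroblasts were deeper, with median depths of 45190 and 40979 UMIs against 16240 and 23008.

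In macrophages the state of the mitotic-positive cells was not alike in the 2 libraries. In the wild-type library 7 genes of MHC class II presentation summed to 2.55 times the level of the remaining macrophages, and in the library labelled Has2-transgenic to 0.40 times. H2-Aa, a class II chain, was at 1540 CPM against 563 CPM in wild-type skin and at 465 CPM against 1179 CPM in the other. An osteoclast-like list of 8 genes was at 0.74 times in wild-type skin and at 2.30 times in the other. Ctsk was at 21.8 CPM against 17.6 CPM in wild-type skin and at 2831 CPM against 396 CPM in the other. Mmp9, a gelatinase, was at 15.6 against 15.3 CPM and at 1429 against 174 CPM. Not all genes of that list did so, since Spp1, which encodes osteopontin, was at 707 CPM against 1897 CPM in the library labelled Has2-transgenic. The wound list, with Arg1, Cxcl3 and Thbs1, was at 0.59 and 0.24 times. With 76 and 143 cells these sums rest on few cells, and the difference between the libraries was not tested. In the 18 and 52 cells with at least 6 mitotic members, a limit added after the data were seen, the class II sum was at 4.70 and 0.25 times and the osteoclast-like sum at 0.054 and 2.80 times.

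The remaining genes of the cycle were taken from wider lists. In macrophages 28 of 28 other replication genes had a ratio above 1, with a median log2 ratio of 0.77, and so did 37 of 38 other mitotic genes, with a median of 1.13. Of all genes measured in this class 57.3% did, with a median of 0.07. Tk1, the thymidine kinase of S phase, was at 0.96 CPM (0.70 to 1.29) and 6.16 CPM (5.39 to 7.0), a ratio of 6.41 (4.63 to 9.06). Clspn, of the replication checkpoint, had 41 and 101 UMIs and a ratio of 2.98 (2.05 to 4.40). Among the mitotic genes Kif22, a chromosome-binding kinesin, had 18 and 83 UMIs and a ratio of 5.58 (3.32 to 9.88), and Hmmr, a hyaluronan receptor that also binds the spindle, had 36 and 119 UMIs and a ratio of 4.0 (2.74 to 5.98). Foxm1, a transcription factor of mitotic genes, had 59 and 87 UMIs and a ratio of 1.78 (1.27 to 2.53). Mybl2, a transcription factor that works with the CHR-binding complex, had 33 and 80 UMIs and a ratio of 2.93 (1.93 to 4.55). Ccne1, a cyclin of the entry into S phase, had 39 and 74 UMIs and a ratio of 2.30 (1.54 to 3.48). Ccnd2 was lower, with 191 and 62 UMIs and a ratio of 0.39 (0.29 to 0.53).

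In fibroblasts 27 of 28 other replication genes were lower, with a median log2 ratio of -0.70, and 37 of 40 other mitotic genes, with a median of -0.44. Of all genes measured in fibroblasts 50.1% were lower. Orc1, of the complex that marks replication origins, was at 4.20 CPM (3.66 to 4.78) and 2.14 CPM (1.80 to 2.53), a ratio of 0.51 (0.41 to 0.63). Fen1, a nuclease that trims lagging-strand fragments, stood at 14.2 and 7.89 CPM, 0.56 times as high (0.50 to 0.62). Of the mitotic genes Kif2c, a kinesin that shortens microtubules, had a ratio of 0.59 (0.47 to 0.73), as had Cep55, a protein of the last step of division (0.50 to 0.69). Tk1 was the exception among replication genes, at 12.1 and 13.1 CPM, with a ratio of 1.08. Ccne2, a cyclin that partners Cdk2 at the start of S phase, had a ratio of 0.52 (0.43 to 0.62), and Cdk6 one of 2.03 (1.85 to 2.24). Of 12 genes that restrain the cycle 11 were higher, against 49.9% of all genes, with a median log2 ratio of 0.47. Cdkn2b, an inhibitor of the kinases that act with D-type cyclins, had 28 and 194 UMIs and a ratio of 5.67 (3.80 to 8.76). Cdkn1c, an inhibitor of cyclin-dependent kinases, was at 16.6 CPM (15.5 to 17.7) and 53.9 CPM (52.1 to 55.7), a ratio of 3.25 (3.01 to 3.50). Cdkn1a, the inhibitor known as p21, was nearly level at 294 and 306 CPM. Single genes of this list were higher in other classes too, but the counts in macrophages and endothelial cells lay nearer the share of all genes. In macrophages 8 of 11 were higher, against 57.3% of all genes, with a median log2 ratio of 0.17. Cdkn1c had a ratio of 2.53 (1.76 to 3.67) there and Cdkn2c one of 1.43 (1.04 to 1.96). In endothelial cells 7 of 11 were higher and 4 lower, against 48.6% of all genes lower, with a median of 0.44 against 0.01 over all genes. The median was 0.14 in T and NK cells, against -0.03 over all genes, and -0.10 in neutrophils, against -0.16.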

How the data were processed

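Single-cell RNA was measured in 2 libraries. The deposited files hold UMI counts per gene and barcode, from Cell Ranger 9.0.1 on GRCm39 as run by the authors, per the submitters' processing notes. Barcodes under 200 genes or over 15% mitochondrial UMIs were dropped (Python 3.11.15, scipy 1.17.1). A cell joined a class when it had at least 3 of its markers, a score of at least 0.15 and a lead of 1.5 times over the next of 16 candidate classes. These thresholds were set after the data were seen, and cells passing several gates were left out, which was the treatment of doublets. Member UMIs were added up within each class of a library and given as CPM of the class. Intervals are exact: Poisson for levels, conditional Clopper-Pearson for ratios, binomial for shares. Only those for ratios were tested on simulated data, with independent counts that do not mimic members gathered in few cells. A gene counted as measured from 20 UMIs in both libraries together, and log2 ratios had 0.5 counts added. A share of 0 is given the limit of 3 counts. In fibroblasts and macrophages the text names the 4 largest and 4 smallest ratios of a set with at least 100 UMIs. In other classes it names the 3 members of a set with the most UMIs. For each further cycle list described in those 2 classes, it names the 2 largest log2 ratios of either sign among genes with at least 100 UMIs. Lists of chromatin and tubulin genes and of other cycle genes are not described, nor is the fibroblast list of cycle transcription factors. Other genes, named for a role or a state, were chosen after their values were seen. Members and lists were chosen with earlier results of these data known. No cell annotation by the authors was used here.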

Additional observations from a re-analysis of the deposited data

Results flagged for a closer look

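The member sums differed in direction between macrophages and fibroblasts. The ratio of the mitotic sums, with wild type below, was 1.94 in macrophages and monocytes and 0.825 in fibroblasts, and the S phase sum was 1.33 and 0.624. With 1 library per genotype the difference between the classes was not tested, and the fibroblast mitotic value was 1.01 as a mean over cells.

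Cells that passed no gate entered no comparison. After thinning to 2000 UMIs, 4.98% of 422 such wild-type cells (3.11 to 7.51) and 9.5% of 242 others (6.12 to 13.9) had at least 2 mitotic members, above the 0.162% and 0.338% of neutrophils. Their median depth before thinning was 5502.5 and 5036.5 UMIs, and 636 and 307 shallower cells had been left out.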

How the results depend on the processing

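Of 370 values of single members under 5 alternatives, 358 stayed within their counting intervals, 12 moved and 0 changed direction. Of 114 values of sums, shares, S to mitotic ratios and counts of members higher or lower, 86 stayed, 24 moved and 4 changed direction, and the cause was not tested. The counts of members were judged by their size and not by an interval, so they could not change direction. With classes from clusters the macrophage sums were 2.16 (mitotic) and 1.40 (S phase), the fibroblast S phase sum 0.639, and the macrophage S to mitotic ratio 1.33 in the library labelled Has2-transgenic. Averaged over cells, macrophage sums were 1.64 and 1.15, and fibroblast sums 1.01 (mitotic, reversed) and 0.712 (S phase). Thinning to 2000 UMIs gave macrophage sums of 1.52 and 1.17. Without the top Scrublet scores fibroblast sums were 0.766 and 0.599 and the wild-type S to mitotic ratio 1.30. Scrublet marked 0% at its own threshold, and removing its top scores took 13.3% and 12.3% of mitotic-positive cells against 4.91% and 4.25% of the remaining cells. Without the 50 most abundant genes in the total, fibroblast sums were 0.850 and 0.643. The share of mitotic-positive macrophages had a ratio of 1.28 at 1 member and 2.73 at 3 members. The fibroblast share had 0.958 at 1 member, 1.05 (reversed) at 1000 UMIs and 1.01 (reversed) without thinning.

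Alternatives chosen after seeing the data left out Cenpa, or Pcna and Cdt1. They gave mitotic sums of 2.61 in macrophages and 0.806 in fibroblasts, and S phase sums of 1.91 and 0.611. The S to mitotic ratio was then 1.10 and 0.804 (below 1, reversed) in macrophages and 1.01 and 0.766 in fibroblasts. A limit of 6 mitotic members moved the macrophage wound list to 0.295 and 0.102 times the remaining cells and changed the direction of none of the state lists compared. No paired analysis was possible because each genotype had 1 library, so no replicate could be left out either. The number of cells limits small classes: a class of 19 cells allows shares of up to 15.8% at a count of 0.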
